A study of Mus musculus with 6 samples.

Results

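The 9 genes Kdr, Flt1, Flt4, Nrp1, Nrp2, Vegfa, Vegfb, Vegfc and Pgf encode the receptors, co-receptors and ligands of the vascular endothelial growth factor (VEGF) family. Their members on the array were taken as every probe set whose annotated symbol was exactly one of these names, which gave 22 of the 45037 probe sets tested (9 of 18193 genes named by a probe set with 1 symbol). Kdr, Vegfb and Pgf had 1 probe set each, Flt4 and Vegfa had 2, Vegfc had 3, and Flt1, Nrp1 and Nrp2 had 4. Kdr encodes Flk1, the surface protein on which the cells were sorted, so its level reads the gate and its comparison between the groups is given as a description.

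The cells came from the mouse embryonic stem (ES) line ER71 A17C, of 129P2/Ola background. All samples of both groups carried the same doxycycline-inducible Etv2 cassette (ER71 A2Lox.cre). Etv2 is an ETS-family transcription factor of the endothelial and blood lineages. Three-dimensional aggregates (embryoid bodies) were grown in hanging drops, and Flk1-positive cells were collected at day 3.5. In the 3 induced samples doxycycline at 0.5 microg/ml was added at day 3 for 12 hours, and the 3 control samples were untreated according to the series' design text, although the treatment field repeats the doxycycline text on all of them. The labels name 1 line and no doxycycline-treated line without the cassette, so an effect of the drug and an effect of Etv2 cannot be told apart. They do not say whether replicates were separate cultures, and p-values measure only the spread between these samples. Values are log2 RMA levels, on which 1 unit is a 2-fold difference. Levels of different probe sets are not on a common scale, so differences were taken only within a probe set, and a place above or below the median of all probe sets is a rough description of signal, not of the amount of transcript.

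VEGF receptors are tyrosine kinases. Vegfa binds Flt1 and Kdr, Vegfb and Pgf bind Flt1, and Vegfc binds Flt4 and, once processed, also Kdr. Signalling through Kdr drives the formation, growth and survival of endothelial cells from Flk1-positive mesoderm, while Flt1 binds Vegfa tightly and limits how much reaches Kdr. The neuropilins Nrp1 and Nrp2 have no kinase of their own, bind VEGF ligands together with the receptors, and also bind class 3 semaphorins.

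The promoters of Kdr, Nrp1, Nrp2 and Vegfb are shown because the levels of these genes moved together, or in opposition, across the arrays. Each line is the stretch of 250 bases before the RefSeq start (build GRCm38.p6), read along the gene's strand, with the core of the ETS motif (GGAA, or TTCC on the other strand) in capitals. All 9 genes had a promoter entry. The Kdr window lies at chr5:75978456-75978705 on the minus strand, Nrp1 at chr8:128358823-128359072 on the plus strand, Nrp2 at chr1:62703067-62703316 on the plus strand and Vegfb at chr19:6987652-6987901 on the minus strand. The annotated Kdr and Nrp1 genes, at chr5:75932827-75979072 and chr8:128358591-128505476, begin further upstream than these starts.
Kdr: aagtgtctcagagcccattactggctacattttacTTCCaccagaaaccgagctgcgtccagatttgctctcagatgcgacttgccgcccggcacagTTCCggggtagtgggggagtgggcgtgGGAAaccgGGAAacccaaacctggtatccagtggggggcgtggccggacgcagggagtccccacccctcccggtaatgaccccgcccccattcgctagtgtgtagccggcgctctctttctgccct
Nrp1: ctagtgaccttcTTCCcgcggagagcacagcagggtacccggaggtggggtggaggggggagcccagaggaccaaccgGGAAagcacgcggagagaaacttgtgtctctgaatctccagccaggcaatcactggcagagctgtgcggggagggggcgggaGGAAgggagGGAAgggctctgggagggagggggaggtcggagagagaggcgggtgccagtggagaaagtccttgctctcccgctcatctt
Nrp2: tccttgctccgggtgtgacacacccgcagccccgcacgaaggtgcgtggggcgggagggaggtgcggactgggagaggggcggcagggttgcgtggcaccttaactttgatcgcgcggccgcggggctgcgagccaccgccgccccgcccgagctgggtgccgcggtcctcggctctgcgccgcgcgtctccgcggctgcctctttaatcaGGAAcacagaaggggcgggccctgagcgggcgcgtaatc
Vegfb: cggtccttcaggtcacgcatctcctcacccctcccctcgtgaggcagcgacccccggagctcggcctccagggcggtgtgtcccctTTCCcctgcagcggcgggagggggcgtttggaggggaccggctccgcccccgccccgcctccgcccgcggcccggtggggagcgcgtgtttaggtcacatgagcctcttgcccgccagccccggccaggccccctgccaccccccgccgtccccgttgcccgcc

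Counted on both strands, the ETS core occurred 4 times in the Kdr window and 4 times in the Nrp1 window, and once each for Nrp2 and Vegfb. It is a short motif, found in 93.5% of the 32841 windows of the same length, with a median of 3. Of the members not shown, Flt1 had 4, Flt4 had 2 and Vegfc had 1. Vegfa had 6 and 2 in its separate windows, and Pgf had 0 in each of its own. The longer form CCGGAA, which contains the core, occurred once in the Kdr window and in none of the other 3 windows shown, against 12.0% of all windows. The GC box GGGCGG was found 2 times for Kdr, 1 time for Nrp1, 5 times for Nrp2 and 4 times for Vegfb, and 32.7% of all windows held at least 1. A match is a description of the letters and says nothing of binding.

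The induced gene itself stood high in all induced samples. Etv2 was at 13.27, 13.28 and 13.36 in induced samples 1, 2 and 3, against 9.92, 8.59 and 10.71 in controls 1, 2 and 3. The log2 difference was 3.56 ± 0.46 (SE), with limma's adjusted p at 0.9998 over all probe sets. Array medians lay between 7.34 and 7.40.

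Of the 22 member probe sets, 0 differed between induced and control samples after adjustment in limma, where 1 of all 45037 probe sets, or 0.00222%, passed. At an unadjusted p under 0.05 there was 1 member, against 1.53% of all probe sets. The log2 differences ran from -0.19 to 0.33, with 15 of the 22 positive and a median of 0.057, beside 51.2% positive and a median of 0.0029 over all probe sets. The groups did not overlap in 1 member, or 4.55%, against 6.42% of all probe sets. That member was lower in the induced samples, as were 3.7% of all probe sets without overlap, while 0 members lay wholly higher, against 2.72% of all. Within the replicate numbers, 3 members, or 13.6%, went the same way in 3 of 3, against 22.9% of all probe sets. With 22 members, several of them from the same gene, these shares are coarse. Whether they differ from those of all probe sets was not tested.

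**Figure D1:**
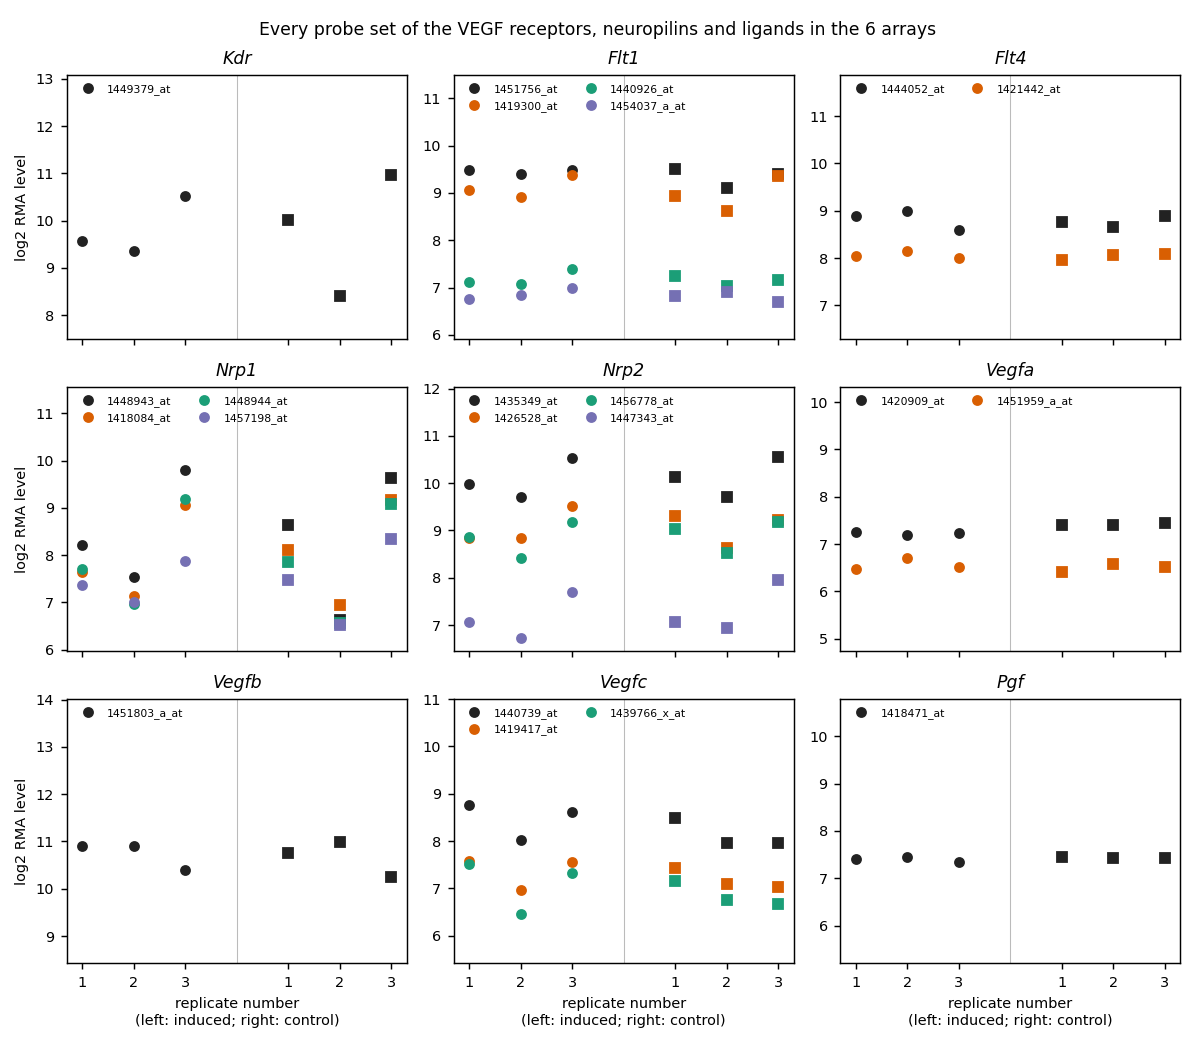
Log2 RMA level (vertical axis, each panel spanning the same number of log2 units) of every probe set of the 9 genes by replicate number, with induced samples as circles on the left and controls as squares on the right of each panel. All 4 Nrp1 probe sets were lowest in number 2 and highest in number 3 of both groups, while the 2 Vegfa probe sets spanned 0.27 and 0.30 and Pgf 0.11 over the 6 arrays.

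Kdr, the receptor on which the cells were gated, varied widely between samples of 1 group. Its level was 9.56, 9.36 and 10.52 in induced samples 1, 2 and 3, against 10.02, 8.40 and 10.97 in controls 1, 2 and 3. The lowest and the highest array were both controls, and the induced samples lay between them. The means were 9.82 ± 0.62 in induced samples and 9.80 ± 1.30 in controls (SD, n = 3 each), a log2 difference of 0.016 ± 0.61 (SE of the limma fit) with a 95% interval of -1.41 to 1.44. With the replicate number as a block the SE was 0.28. Kdr was lower in the induced sample by 0.46 in number 1 and by 0.45 in number 3, and higher by 0.96 in number 2. The difference was -0.68 without control 2, -0.34 without induced 3, 0.24 without induced 2 and 0.60 without control 3. It was -0.46 without both samples of number 2, an alternative added once the values were known.

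Flt1, the other high-affinity receptor for Vegfa, showed no difference past the threshold with any of its 4 probe sets. Probe set 1451756_at was at 9.49, 9.39 and 9.49 in induced samples, against 9.51, 9.11 and 9.39 in controls, a log2 difference of 0.12 ± 0.11 (SE) that lay between 0.011 and 0.21 with 1 array left out. Probe set 1419300_at was at 9.06, 8.92 and 9.38 in induced samples, against 8.93, 8.61 and 9.35 in controls. It was higher in the induced sample of 3 of 3 numbers, by 0.14, 0.32 and 0.030, though the groups overlapped. Limma's unadjusted p was 0.442, and 0.127 with the replicate number as a block. Probe set 1440926_at was at 7.12, 7.07 and 7.40 in induced samples and 7.24, 7.03 and 7.15 in controls. Probe set 1454037_a_at was at 6.76, 6.85 and 7.00 in induced samples and 6.83, 6.91 and 6.70 in controls. Both had overlapping groups and log2 differences of 0.056 and 0.059. Between pairs of Flt1 probe sets the correlation over the 6 arrays ran from -0.16 to 0.70, so the 4 did not follow a common course.

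Flt4, the receptor of Vegfc, ranged over 0.40 and 0.19 log2 units with its 2 probe sets, where the median range of all probe sets was 0.33. Its probe set 1444052_at was at 8.89, 9.00 and 8.60 in induced samples and 8.77, 8.65 and 8.89 in controls, and 1421442_at was at 8.05, 8.15 and 8.01 in induced samples and 7.96, 8.06 and 8.08 in controls. Their log2 differences were 0.060 ± 0.12 and 0.039 ± 0.078 (SE). Induced and control samples overlapped in both.

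Nrp1, the neuropilin that partners Kdr, had the widest range among the members. Its probe set with the highest mean, 1448943_at, was at 8.21, 7.54 and 9.80 in induced samples 1, 2 and 3, against 8.63, 6.63 and 9.63 in controls 1, 2 and 3, a range of 3.17 log2 units. Both samples of number 2 were the lowest and both of number 3 the highest. The log2 difference was 0.22 ± 0.81 (SE), with a 95% interval of -1.67 to 2.12, and the SE was 0.23 with the replicate number as a block. Leaving out control 3 moved it to 0.89 and leaving out control 2 to -0.61.

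The other Nrp1 probe sets took the same course. Probe set 1418084_at was at 7.65, 7.15 and 9.07 in induced samples, against 8.11, 6.95 and 9.17 in controls, and 1448944_at was at 7.71, 6.96 and 9.19 in induced samples, against 7.86, 6.57 and 9.09 in controls. Probe set 1457198_at was at 7.37, 7.02 and 7.88 in induced samples and 7.47, 6.53 and 8.34 in controls. Pairs of Nrp1 probe sets correlated at 0.95 to 0.99 over the 6 arrays. Their log2 differences between the groups were -0.12, 0.12 and -0.023, none of them past the threshold.

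Nrp2, the neuropilin of veins and lymphatic vessels, was lowest in number 2 and highest in number 3 with its probe set 1435349_at, over a smaller range. This probe set was at 9.98, 9.71 and 10.53 in induced samples 1, 2 and 3, against 10.12, 9.70 and 10.56 in controls 1, 2 and 3. Same-numbered samples of the groups differed by 0.15 at most, while the numbers averaged 10.05, 9.70 and 10.55 for 1, 2 and 3. The log2 difference between the groups was -0.057 ± 0.26 (SE), and the SE was 0.082 with the replicate number as a block. Probe set 1426528_at was at 8.84, 8.83 and 9.53 in induced samples and 9.30, 8.62 and 9.23 in controls, so that control 1 was its highest control, and 71.7% of its spread lay between numbers. Probe set 1456778_at was at 8.86, 8.42 and 9.18 in induced samples and 9.03, 8.53 and 9.18 in controls, and 1447343_at was at 7.06, 6.72 and 7.71 in induced samples and 7.05, 6.94 and 7.95 in controls. These 3 had overlapping groups and log2 differences of 0.018, -0.095 and -0.15, and pairs of Nrp2 probe sets correlated at 0.71 to 0.95.

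Vegfa, the main ligand of Kdr, held the single member whose groups did not overlap. Probe set 1420909_at was at 7.25, 7.18 and 7.24 in induced samples, against 7.40, 7.40 and 7.45 in controls, and every induced sample lay below every control. The log2 difference was -0.19 ± 0.069 (SE), with a 95% interval of -0.35 to -0.028, and it was lower in 3 of 3 numbers, by 0.15, 0.21 and 0.21. Limma gave an unadjusted p of 0.0274 and an adjusted p of 0.9998. Blocking on the replicate number gave an unadjusted p of 0.0523, and with 1 array left out it lay between 0.0426 and 0.0749. With 3 samples a group, the two-sided exact permutation p was 0.1, which is the lowest this design can reach. The other Vegfa probe set, 1451959_a_at, went the other way, at 6.48, 6.71 and 6.52 in induced samples and 6.40, 6.57 and 6.52 in controls, a log2 difference of 0.071 ± 0.091 that lay between 0.00084 and 0.12 with 1 array left out. The 2 probe sets disagreed (r = -0.50 over the 6 arrays) and both had a mean below the median of all probe sets.

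Vegfb, a ligand of Flt1, ran opposite to the neuropilins. It was at 10.91, 10.91 and 10.40 in induced samples 1, 2 and 3, against 10.76, 11.00 and 10.24 in controls 1, 2 and 3. Both samples of number 3 were the lowest. The log2 difference between the groups was 0.071 ± 0.21 (SE), and the SE was 0.091 with the replicate number as a block. Pgf, another ligand of Flt1, was at 7.41, 7.45 and 7.34 in induced samples and 7.45, 7.43 and 7.43 in controls, a range of 0.11, with a log2 difference of -0.040 ± 0.070.

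Vegfc, the ligand of Flt4, had the highest log2 difference among the members. Its probe set 1440739_at was at 8.77, 8.02 and 8.61 in induced samples 1, 2 and 3, against 8.49, 7.96 and 7.97 in controls 1, 2 and 3, and was higher in 3 of 3 numbers, by 0.28, 0.057 and 0.64. The groups overlapped, since induced 2 was below control 1. On the log2 scale the difference was 0.33 ± 0.22 (SE), which is 1.25-fold. Its 95% interval ran from -0.19 to 0.84, and limma's unadjusted p was 0.180. Over the settings that left out 1 array it lay between 0.17 and 0.55. Probe set 1419417_at was at 7.57, 6.96 and 7.56 in induced samples and 7.43, 7.10 and 7.04 in controls, and 1439766_x_at was at 7.51, 6.46 and 7.33 in induced samples and 7.15, 6.75 and 6.66 in controls. They had log2 differences of 0.18 ± 0.19 and 0.24 ± 0.27 and were higher in the induced sample of numbers 1 and 3 and lower in that of number 2. With 1 array left out these lay between 0.070 and 0.38 for 1419417_at and between 0.039 and 0.57 for 1439766_x_at, the highest for 1439766_x_at being without induced 2, with limma's unadjusted p at 0.0127 and its adjusted p above 0.9998. The 3 Vegfc probe sets correlated at 0.96 to 0.99 over the 6 arrays. With the replicate number as a block, 1440739_at reached an unadjusted p of 0.0372 in limma, the only member to do so, beside 2.88% of all probe sets, and its adjusted p was 0.9997.

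**Figure D2:**
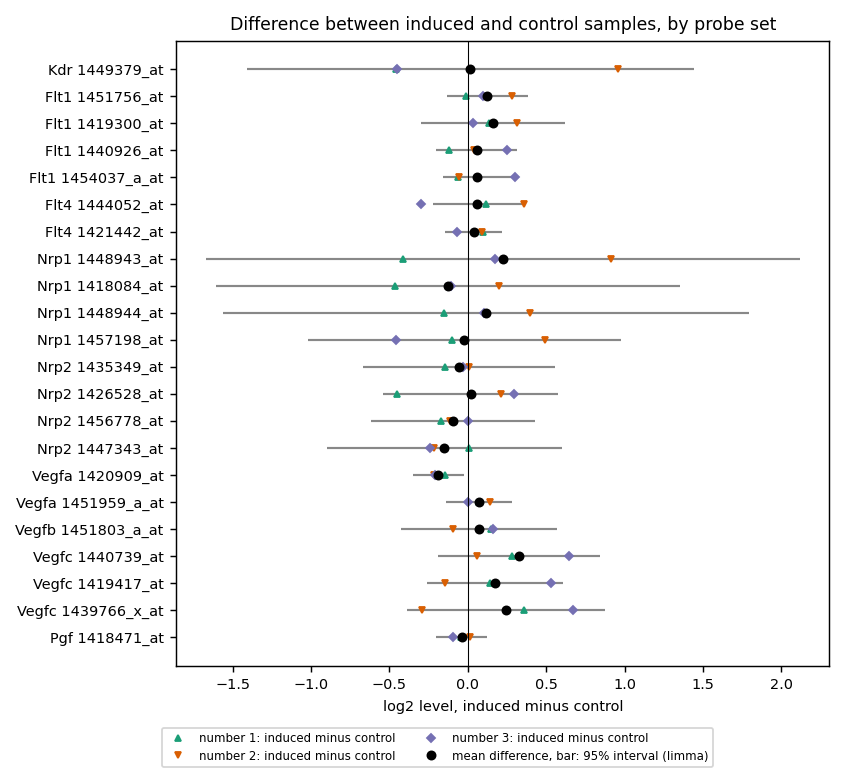
Log2 difference, induced minus control, for each member probe set: black points are means, bars the 95% intervals of the limma fit, and coloured symbols the difference within each replicate number. The interval of 1 probe set, Vegfa 1420909_at, excludes 0 before adjustment in this fit, which has no replicate block (unadjusted p 0.0523 with it); those of Kdr and Nrp1 are the widest.

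The spread of the neuropilins and of Vegfb lay between the replicate numbers. For each probe set the sum of squares over the 6 arrays was divided between numbers, between the groups and a remainder. Among all probe sets the median share between numbers was 44.2%. At least 90% lay between numbers for 3.65% of all probe sets, and for 6.13% of the 1288 with a range of at least 1 log2 unit. Among the 22 members this was so for 7, several of them from the same gene. These 7 were 3 of the 4 Nrp1 probe sets, with 93.1%, 97.0% and 98.3%, 3 of the 4 Nrp2 probe sets, with 98.5%, 96.0% and 95.4%, and Vegfb, with 94.2%. Kdr had 83.9% between numbers and 0.0089% between the groups. Vegfa 1420909_at was the reverse, with 91.4% between the groups and 6.06% between numbers, in a total range of 0.27. What a replicate number stands for is not given in the labels.

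**Figure D3:**
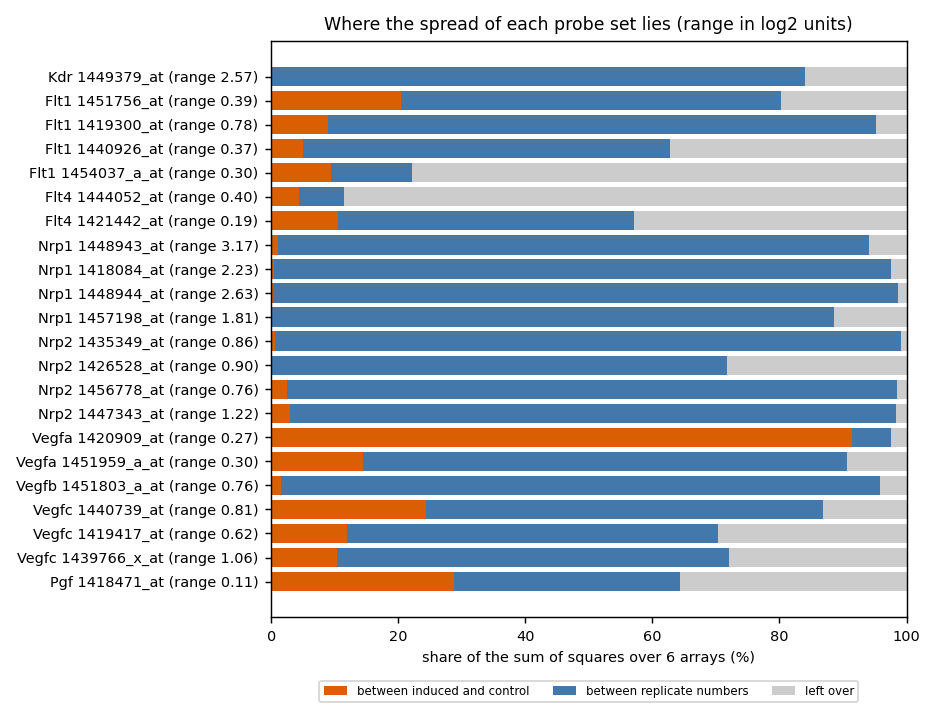
Percent of each probe set's sum of squares over the 6 arrays that lies between induced and control samples (orange), between replicate numbers (blue) or in neither (grey), with the range over the arrays in log2 units beside each name. The blue share is between 88.6% and 98.3% in the 4 Nrp1 probe sets, and the orange share is 91.4% in Vegfa 1420909_at.

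Levels were then set against Kdr over the 6 arrays, as 21 relations with p-values from exact permutation of the arrays, two-sided and adjusted over the 21. This counts the 6 arrays as independent, while most of the spread of Kdr, Nrp1, Nrp2 1435349_at and Vegfb lay between 3 numbers, so these p-values are too small and the relations are given mainly as a description. Pearson's r passed the adjusted threshold for 7 of them. All 4 Nrp1 probe sets were positive, with r of 0.97 for 1448943_at, 0.95 for 1418084_at, 0.95 for 1448944_at and 0.99 for 1457198_at, each with an exact adjusted p of 0.0117. Nrp2 1435349_at had r = 0.93 (exact adjusted p = 0.0117) and Flt1 1419300_at r = 0.93 (0.0292). The other Flt1 probe sets did not pass, with r of 0.68 for 1451756_at, 0.68 for 1440926_at and -0.28 for 1454037_a_at. Vegfb was negative, with r = -0.92 (exact adjusted p = 0.0146).

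By Spearman's rho 4 of the 21 passed, each with an exact adjusted p of 0.0146. These were Nrp1 1418084_at and 1457198_at and Nrp2 1435349_at, with rho of 1, and Vegfb, with rho of -1. For Nrp1 1448943_at and 1448944_at rho was 0.94 (exact adjusted p = 0.0583), and for Flt1 1419300_at it was 0.89 (0.0778). The other Nrp2 probe sets had r of 0.86, 0.87 and 0.83 (exact adjusted p = 0.0547, 0.0648 and 0.0758). Flt4, Vegfa, Vegfc and Pgf had r between -0.36 and 0.22, with exact adjusted p of at least 0.690 by either measure.

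The relations were recomputed without control 2 and control 3, the 2 arrays farthest from the median of Kdr, which left 4 arrays. Of those that had passed, r was then 0.95 to 0.99 for the 4 Nrp1 probe sets and 0.98 for Nrp2 1435349_at. It was 0.78 for Flt1 1419300_at and -0.96 for Vegfb. Members that had not passed moved to extreme r as well. Flt4 1444052_at went from 0.089 to -0.99 and Flt1 1440926_at from 0.68 to 0.999. With so few arrays, this step says little of how firm a relation is. On deviations from the group means r was 0.95 to 0.99 for Nrp1, 0.93 for Nrp2 1435349_at, 0.97 for Flt1 1419300_at and -0.93 for Vegfb. Only 0.0089% of Kdr's spread lay between the groups, so this step could change r little. It leaves the differences between numbers, 83.9% of Kdr's spread, in place. Within a replicate number, which holds 2 arrays and so gives a sign only, Nrp1 1418084_at, Nrp1 1457198_at and Nrp2 1435349_at differed in the same direction as Kdr in 3 of 3 numbers. Vegfb differed in the opposite direction in 3 of 3. So did Vegfc 1419417_at and 1439766_x_at, whose r with Kdr was only 0.21 and 0.18. Pgf, with r = -0.30, shared Kdr's direction in 3 of 3. These signs thus do not set apart the members that followed Kdr. Nrp1 1448943_at and 1448944_at shared Kdr's direction in 2 of 3, and Flt1 1419300_at in 1 of 3. The Flt1 differences were positive in all 3 numbers and highest in number 2, the only number in which Kdr was higher in the induced sample.

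**Figure D4:**
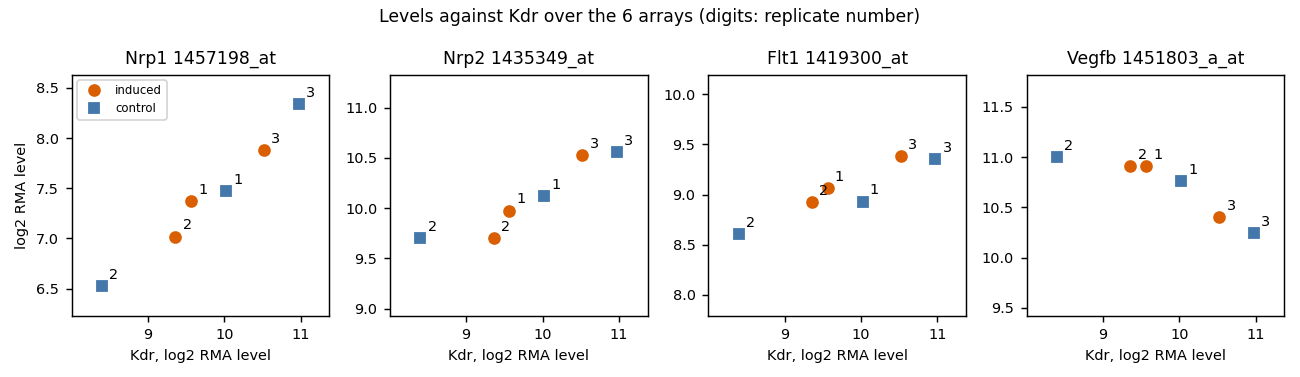
Log2 RMA levels of Nrp1 1457198_at, Nrp2 1435349_at, Flt1 1419300_at and Vegfb (vertical axes) against that of Kdr (horizontal axis) in the 3 induced (circles) and 3 control (squares) arrays, with digits giving the replicate number. For each gene the probe set with the largest r to Kdr, in absolute size, is shown. The Nrp1 and Nrp2 probe sets shown rank the arrays as Kdr does, and Vegfb ranks them in reverse. Spearman's rho was 0.94 for Nrp1 1448943_at and 1448944_at and 0.83 to 0.89 for the other Nrp2 probe sets. Control 2 has the lowest and control 3 the highest Kdr.

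Many other probe sets followed Kdr too. An r of at least 0.9 with Kdr was found for 6 of the 21 member probe sets and for 1.76% of all probe sets, and, among the 1288 probe sets with a range of at least 1 log2 unit, for 14.9%. An r of -0.9 or lower, as for Vegfb, was found for 2.24% of all probe sets. The 3 genes most like Kdr by Pearson's r over the 6 arrays, among those 1288, were Zfpm1 (r = 0.997), which encodes a cofactor of GATA factors, the non-coding RNA Evx1os (0.996) and the T-box gene Tbx3 (0.995). Those most like Nrp1 1448943_at were Lhfp (0.999), the G-protein subunit gene Gna14 (0.998) and the GATA factor gene Gata3 (0.998). These are the highest of many values over arrays that share 3 numbers, and are given as a description.

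Mesoderm markers moved with the same arrays. All 12 measured Flk1-positive mesoderm markers, of 13 listed, had a mean above the median of all probe sets, and their average level was 10.58, 10.43 and 11.03 in induced samples 1, 2 and 3 and 11.10, 10.01 and 11.40 in controls 1, 2 and 3. The average of the 8 pluripotency markers ran the other way, at 11.05, 11.01 and 10.88 in induced samples and 10.81, 11.28 and 10.62 in controls. Control 2 had the lowest mesoderm and the highest pluripotency average, as well as the lowest Kdr and the lowest level of all 4 Nrp1 probe sets. Fewer cells of a type and less RNA per cell cannot be told apart in such bulk samples. The part of these markers in the levels of Kdr, Nrp1, Nrp2 and Vegfb was not tested. Endothelial markers averaged 7.21, 7.34 and 7.26 in induced samples and 7.15, 7.09 and 7.27 in controls. With 1 probe set a gene, 10 of the 12 had a positive log2 difference, beside 51.2% of all probe sets. The same count was 6 of 7 for visceral endoderm, 5 of 8 for pluripotency and 3 of 6 for primitive erythroid markers. It was 2 of 12 for mesoderm, 2 of 5 for cardiac and 2 of 5 for neuroectoderm markers. In each list 0 passed the adjusted threshold. Egfl7, Ramp2, Sox17 and Esam lay above the median of all probe sets and the other 8, among them Cdh5, Pecam1, Tie1, Tek and Emcn, below it. The cardiac markers averaged 7.39, 7.45 and 7.80 in induced samples and 7.62, 7.29 and 7.89 in controls. Averages of 6 primitive erythroid markers lay between 6.54 and 6.83 on all arrays, of 7 visceral endoderm markers between 7.16 and 7.38, and of 5 neuroectoderm markers between 8.08 and 8.35.

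The wider VEGF pathway was read from 7 lists with 83 symbols, of which 76 had a probe set with that symbol and 198 probe sets in all. After adjustment 0 of the 198 differed between induced and control samples in limma, against 0.00222% of all probe sets, and 4 did at an unadjusted p under 0.05, where 1.53% of all probe sets did. Groups did not overlap in 8 probe sets that were higher in induced samples, Etv2 itself among them, and in 2 that were lower, where 2.72% and 3.7% of all probe sets did so. Symbols without a probe set were not analysed here.

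Downstream of the receptors, 27 measured genes with 80 probe sets, from phospholipase C gamma to the Akt, p38 and calcineurin branches, had a median log2 difference of -0.0083. The 2 probe sets with the smallest p were those of Nos3, the endothelial nitric oxide synthase, at 6.75, 6.88 and 6.59 in induced samples and 6.56, 6.52 and 6.51 in controls, and of Sos1 (1421886_at), a Ras exchange factor, with a log2 difference of 0.15. Of the other Sos1 probe sets, 1434389_at was wholly lower in induced samples (-0.18), 1421884_at and 1431311_at were at -0.15 each and 1421885_at at 0.0038, so the gene's probe sets disagreed. For Nos3 the log2 difference was 0.21 ± 0.091 (SE), with limma's adjusted p at 0.9998.

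Among 11 receptor partners, phosphatases and trafficking genes, 2 of 35 probe sets had an unadjusted p under 0.05 in limma, where 1.53% of all probe sets did. Cdh5 (1433956_at), the endothelial cadherin that associates with Kdr, was at 6.44, 6.40 and 6.20 in induced samples and 6.10, 6.08 and 6.16 in controls, a log2 difference of 0.23 ± 0.087 (SE). Efnb2 (1449549_at), an ephrin ligand needed for uptake of VEGF receptors, was at 7.24, 7.74 and 7.23 in induced samples and 6.94, 7.10 and 7.14 in controls, a log2 difference of 0.34 ± 0.15. Induced samples lay wholly above controls in both probe sets. The other Cdh5 probe set, 1422047_at, had a log2 difference of 0.19 with overlapping groups, and its induced 3 (6.28) lay below control 3 (6.38). The other 3 Efnb2 probe sets had log2 differences of -0.20, -0.19 and 0.076, so the gene's probe sets disagreed.

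Semaphorins that bind the neuropilins showed no called difference in 18 probe sets of 7 genes, the smallest p being those of Sema3d, with a log2 difference of -0.20, and Sema3a (1449865_at), with 0.17. Of the genes for the remaining ligand and for Vegfc processing, Pcsk7, a proprotein convertase, had a log2 difference of -0.16 and Vegfd (1449528_at) of 0.11. Among genes of oxygen sensing, which act upstream of Vegfa, Hif1a (1416035_at) had a log2 difference of -0.21 ± 0.13 (SE) and Vhl (1434708_at) of -0.12 ± 0.11. In the angiopoietin and Tie system, Tie1 had 0.15 ± 0.088 and Angpt4 0.14 ± 0.10. None of these passed the threshold. They are the probe sets with the smallest p, and values of the other Sema3d, Sema3a, Vegfd, Hif1a, Vhl and Angpt4 probe sets are not given here.

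Of the factors known to act on Kdr, 13 measured genes with 23 probe sets, Etv2 and Lmo2 had the smallest p. Lmo2, whose LIM-domain protein bridges transcription factors in blood and vessel precursors, was at 9.54, 9.33 and 9.68 in induced samples and 8.58, 8.67 and 8.87 in controls, a log2 difference of 0.81 ± 0.12 (SE), with limma's adjusted p at 0.9998 over all probe sets. For both genes every induced sample was higher than every control, and Etv2 is the gene that the cassette carries. The groups overlapped for Kdr, but the cells were sorted on its product, so its level cannot show whether it responded. The median range over the 6 arrays was 0.72 for this list and 0.33 for all probe sets.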

How the data were processed

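RNA from 3 induced and 3 control samples was measured on mouse expression arrays. The authors deposited log2 expression values per probe set. The submitters' processing notes name RMA, which corrects background, quantile-normalizes arrays and summarises probes. They give no version for it. The number of arrays limits the precision. Of 45101 probe sets, 64 Affymetrix controls were left out and 45037 tested. Symbols came from the GEO platform annotation, with 34958 probe sets having 1 symbol, 932 several and 9211 no entry.

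Induced and control samples were set against each other in a linear model across all probe sets (limma 3.58.1, R 4.3.3), two-sided, with Benjamini-Hochberg adjustment over all probe sets and a threshold of 0.05, and the fit was tested on simulated data. Correlations used numpy 2.4.6 and all 720 orders of the arrays. Alternatives were the replicate number as a block, each array left out, median centring, quantile normalization, array weights, a level filter, 1 probe set a gene and a trended prior. Same-numbered samples deviated together from their group means (r = 0.25, 0.17 and 0.23 for numbers 1, 2 and 3), above 0.1. The tests and intervals are without the block, which is given beside a result where it changes its reading. The labels tie the numbers to no day or culture, and control 2 and induced 1 (r = 0.18) and control 1 and induced 3 (r = 0.21) deviated together too.

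Named were every member, Etv2, the 2 smallest p of each pathway list with no call, and the 3 genes most like any member whose probe set with the highest mean ranged over at least 1 log2 unit. The members and lists were chosen with earlier results of these data known. Sequences are from RefSeq (GRCm38.p6).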

Additional observations from a re-analysis of the deposited data

How the results depend on the processing

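In none of the 14 alternatives did a member probe set pass limma's adjusted threshold (lowest adjusted p 0.965), and the pathway lists had 0 calls in each. Over all probe sets 1 was called, 0 with the replicate block, 0 with each array centred on its median, 0 without both samples of replicate 2 (added once values were known) and 0 with any single array left out; the unadjusted count under 0.05 was 1298 with the block and 690 without. The members' median log2 difference of 0.057 lay between -0.031 and 0.13 with 1 array left out and was -0.046 without both samples of replicate 2. Of 288 recomputed member differences, 42 turned direction, all of them uncalled, and 7 probe sets turned under none. With array weights the probe sets that turned were Nrp1 1418084_at (0.22) and 1457198_at (0.17) and Vegfb (-0.039). Nrp2 1435349_at (0.10), 1447343_at (0.12) and 1456778_at (0.039) turned there too. Centring turned Kdr (-0.0021). Without both samples of replicate 2 Kdr (-0.46), Nrp1 1448943_at (-0.12) and 1448944_at (-0.023), Nrp2 1426528_at (-0.078) and Flt4 1444052_at (-0.089) were negative. With 1 array left out the range was -0.68 to 0.60 for Kdr, -0.69 to 0.42 for Nrp1 1418084_at, -0.61 to 0.89 for 1448943_at, -0.52 to 0.74 for 1448944_at and -0.48 to 0.42 for 1457198_at. It was -0.29 to 0.16 for Nrp2 1435349_at, -0.21 to 0.14 for 1426528_at, -0.28 to 0.11 for 1456778_at and -0.42 to 0.17 for 1447343_at. For Flt1 it was -0.017 to 0.36 (1419300_at), -0.047 to 0.12 (1440926_at) and -0.0050 to 0.11 (1454037_a_at), for Flt4 -0.00046 to 0.069 (1421442_at) and -0.026 to 0.18 (1444052_at), and for Vegfb -0.14 to 0.24. The cause was not tested. The 7 relations with Kdr passed after centring too. Array medians lay between 7.34 and 7.40 while Kdr ranged over 2.57 log2 units, so this step could change r little. Signal over background is not in the log2 values, so for probe sets near or below the table's median level, among them those of Vegfa, a small difference can be an understated one.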
